A study of Mus musculus with 12 samples.

Results

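Foxk1 knockout was compared with control at day 3 of mesodermal differentiation in mouse embryoid bodies, the floating aggregates that embryonic stem cells form when they leave the stem cell state. The comparison rests on 4 of the 12 libraries of the study: 2 from Foxk1 knockout (KO) cells and 2 from the iHA-Foxk1 line, whose label adds NoDox and which served as the control. Both stem cell lines had grown on irradiated mouse embryonic fibroblasts with LIF and had been plated to take the fibroblasts away, and both were then shaken in mesodermal medium. ATAC-seq, in which the Tn5 transposase cuts and tags open chromatin, was run on a fixed number of cells per library. The KO and the control are separate lines, so the absence of Foxk1 and any other difference between the lines cannot be told apart, and how the KO allele was made is not given in the sources used here. Whether the 2 libraries of a line came from separate differentiations is not given, so their spread may be technical.

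Foxk1 is a forkhead transcription factor, a family that binds DNA through a winged-helix domain. It is known for recruiting the Sin3 corepressor, for restraining autophagy genes, for glycolytic gene control and for a role in muscle progenitors. At about this stage, embryoid bodies under mesodermal conditions pass from an epiblast-like state through a primitive streak-like state, in which Wnt and Nodal signals switch on Eomes, Mixl1 and Mesp1 and cells enter mesoderm.

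The deposited lists hold peak summits, the position of highest signal in each peak, with a score. KO replicates 1 and 2 held 59006 and 53456 summits on chromosomes 1 to 19 and X, and control replicates 1 and 2 held 53473 and 54100. The 53456 highest-scoring summits of each library were compared, and rank 1 is the highest score in its library. Summits within 250 bp of each other were merged into 82053 regions, of which 52273 held a summit in both libraries of a line and are called reproducible here. KO-only regions had summits from each KO library and none from the control, and control-only regions the reverse. There were 5106 KO-only regions (9.77% of the reproducible regions) and 5001 control-only regions (9.57%), and 32431 regions were found in all 4 libraries. Both shares are the background for every count below. With 2 libraries against 2, no exact permutation p under 0.333 is possible within a day, so the differences at day 3 are described by their values in each library.

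Promoters found open in one line alone are shown first, because their sequence is known. Each window runs from 250 bases before to 50 bases after a RefSeq start site (GRCm38.p6, the assembly of mm10), 5′ to 3′ on the strand of the gene. Capitals mark the summit base and the 10 bases on each side of it, for every summit of the line that lay inside the window. The first 3 had summits in both KO libraries and no compared control summit within 10 kb, and the other 2 had summits in both control libraries and no compared KO summit within 10 kb.

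Hprt, chrX:52987828-52988127, plus strand: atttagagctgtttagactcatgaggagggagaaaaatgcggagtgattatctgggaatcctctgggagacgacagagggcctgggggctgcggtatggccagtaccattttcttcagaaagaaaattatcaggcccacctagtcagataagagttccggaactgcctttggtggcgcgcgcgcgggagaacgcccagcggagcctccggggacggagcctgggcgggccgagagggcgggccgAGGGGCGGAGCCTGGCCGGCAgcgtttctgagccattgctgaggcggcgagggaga
Trim12a, chr7:104315446-104315745, minus strand: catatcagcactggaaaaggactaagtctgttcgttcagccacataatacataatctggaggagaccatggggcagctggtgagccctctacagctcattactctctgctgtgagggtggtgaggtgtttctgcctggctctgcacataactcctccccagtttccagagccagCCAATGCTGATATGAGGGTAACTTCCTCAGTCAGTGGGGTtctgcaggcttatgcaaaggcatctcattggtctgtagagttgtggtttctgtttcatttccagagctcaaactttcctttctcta
Plagl1, chr10:13090582-13090881, plus strand: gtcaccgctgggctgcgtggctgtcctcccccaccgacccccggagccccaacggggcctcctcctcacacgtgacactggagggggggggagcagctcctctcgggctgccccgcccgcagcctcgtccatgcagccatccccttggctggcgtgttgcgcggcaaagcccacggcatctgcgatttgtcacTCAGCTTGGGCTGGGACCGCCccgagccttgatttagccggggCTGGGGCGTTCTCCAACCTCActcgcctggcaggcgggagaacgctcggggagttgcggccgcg
Impg1, chr9:80465389-80465688, minus strand: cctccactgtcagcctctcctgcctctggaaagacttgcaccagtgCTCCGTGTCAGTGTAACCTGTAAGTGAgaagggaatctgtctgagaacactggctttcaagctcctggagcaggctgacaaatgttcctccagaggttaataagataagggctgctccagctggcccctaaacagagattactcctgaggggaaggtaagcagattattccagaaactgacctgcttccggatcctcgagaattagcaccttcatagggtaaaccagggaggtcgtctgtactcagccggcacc
Cer1, chr4:82885102-82885401, minus strand: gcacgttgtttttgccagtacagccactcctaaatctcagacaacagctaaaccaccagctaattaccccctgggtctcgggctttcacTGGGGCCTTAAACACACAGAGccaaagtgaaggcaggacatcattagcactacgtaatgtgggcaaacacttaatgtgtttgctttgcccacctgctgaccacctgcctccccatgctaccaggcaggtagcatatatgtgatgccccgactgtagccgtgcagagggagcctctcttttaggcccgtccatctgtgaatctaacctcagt

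Hprt (gene 15452), which encodes a purine salvage enzyme and is expressed in nearly all cells, had KO summits at ranks 11898 and 10327, 4 and 50 bases after its start site. The nearest compared control summits lay 64717 and 64679 bp away. Neither full control list, little longer than the compared one, had a summit within 1 kb. At day 5 both KO libraries again had a summit there and neither iHA-Foxk1 library did. Hprt is often used as a site for transgenes in engineered stem cells. The labels do not describe how either line was engineered, and whether a construct adds to this value was not tested. Trim12a (gene 76681), an antiviral TRIM family gene, had KO summits at ranks 2618 and 2640, with the nearest control summit at 37977 bp. Its neighbours Trim5 (ranks 3454 and 6961) and Trim30d (26175 and 24988) on chromosome 7 were also open in the KO libraries alone, and all 3 promoters were found in both KO and neither iHA-Foxk1 library at day 5. Trim genes of this cluster are near copies of each other, so reads from one can be placed on another. Plagl1 (gene 22634), an imprinted zinc finger gene, had KO summits at ranks 13075 and 17191 and control summits no nearer than 11766 bp. Impg1 (gene 63859), a matrix proteoglycan gene of the retina, had control summits at ranks 16505 and 16035, and the nearest compared KO summit was 39276 bp away. The full list of KO replicate 1 did hold a summit within 1 kb of the Impg1 start. Cer1 (gene 12622), a secreted Nodal, BMP and Wnt antagonist of the anterior endoderm, had control summits at ranks 45346 and 34744 and its nearest KO summits at 25570 and 25611 bp. The Cer1 control summits lay 120 bases after and 151 bases before the start. They are too far apart to merge at 250 bp, so they are not 1 reproducible region.

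Promoter calls were few over the whole set. Of 17274 protein-coding genes with a RefSeq start site in the table used, which has none on chromosome 18, 11371 had a summit within 1 kb in both libraries of a line, and 10857 had one in all 4 libraries. KO-only promoters numbered 100 (0.879%) and control-only promoters 79 (0.695%). Of these, 34 KO-only and 31 control-only promoters had no compared summit of the other line within 10 kb. Many of the rest lay close to the 1 kb limit: at Gmfg, whose control summits lay 975 and 947 bp from the start, a KO summit lay 1036 bp from it. Genes of the lists described below made up 6 of the calls. Hoxa10, Nkx2-5 (a cardiac homeobox factor), Smarcd3 (a cardiac chromatin remodelling subunit) and Wnt3a were KO-only, and Cer1 and Myf5 (a skeletal muscle factor) were control-only. These 6 were weak sites, with ranks between 33431 and 51901 in the line that had them. A promoter call does not require the summits of both libraries to merge into 1 region. They did not merge at Cer1, nor at Wnt3a, where KO summits lay 17 bases before and 388 bases after the start. The difference between the lines depended on how many summits were compared: with N divided by 2, where N is the 53456 summits per library, 243 promoters were KO-only and 66 control-only. Shorter lists also change how many promoters have a summit, so these counts are not shares of the 11371.

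The letters of known factor motifs were counted on both strands in 300-base promoter windows. The forkhead letters GTAAACA occurred in 2 of 124 windows with a KO-only region (1.61%), 1 of 81 with a control-only region (1.23%), 2.15% of windows with a region in all 4 libraries and 3.03% of all 21020 windows. The octamer letters ATTTGCAT occurred in 5 of 124 (4.03%) and 3 of 81 (3.7%), against 1.51% of the shared and 1.68% of all windows. Each of these forkhead and octamer counts on called windows is 5 or fewer. The bicoid-class homeobox letters TAATCC occurred in 10 of 124 (8.06%) and 6 of 81 (7.41%), against 4.64% of the shared and 6.38% of all windows. The T-box, Tcf/Lef, Gata and Tead letters, also counted, were not above both the shared and all windows in each direction. Among the sequences printed above, Hprt and Impg1 hold the Gata letters AGATAA or their reverse complement, a match that 9.69% of all windows share.

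Foxk1 itself, the targeted gene (gene 17425, 142401497 to 142462015 on chromosome 5), kept accessible sites in the KO libraries. The region at its lower end (142401512 to 142401682) ranked 11813 and 15182 in KO and 9290 and 8089 in control. An internal site (142440536 to 142440666) ranked higher in KO (1975 and 1882) than in control (4456 and 3457). A further internal site (142416267 to 142416536) had a summit in both control libraries (29905 and 19207) and in KO replicate 2 alone (49262). None of the 9 regions at Foxk1 was KO-only or control-only. These sites are no check of the knockout, because which part of the gene was removed is not given in the sources used here.

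Most called regions were weak sites. Median rank, taken as the worse of the 2 libraries of the line, was 42650 for KO-only and 40179 for control-only regions, against 16809 for regions in all 4 libraries (better line). Only 63 KO-only and 85 control-only regions ranked 10000 or better, while 3059 and 2541 ranked worse than 40000. Among reproducible regions of rank 1001 to 5000, 0.35% were KO-only and 0.426% control-only. Among those past rank 40000 the shares were 26.3% and 21.9%.

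**Figure D1:**
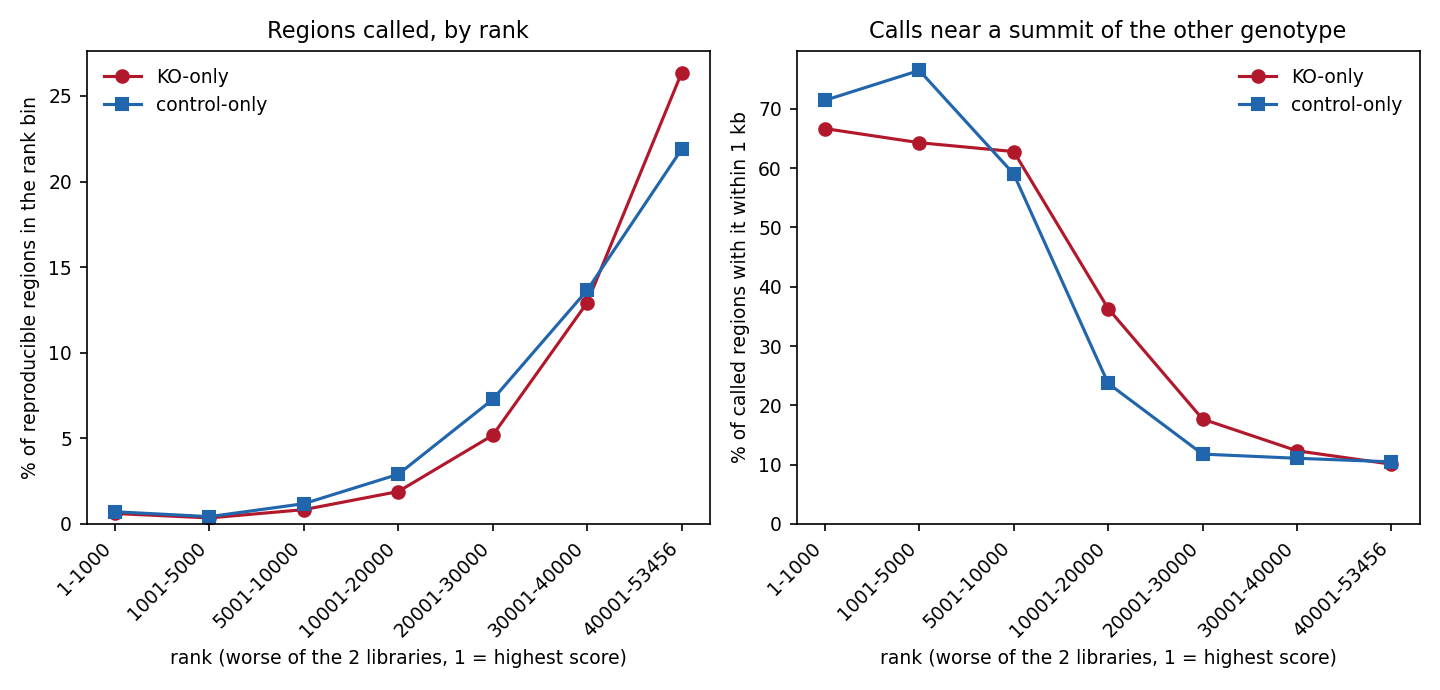
Left, the share of reproducible regions called KO-only or control-only, in bins of rank (worse of the 2 libraries). Right, the share of those calls with a compared summit of the other line within 1 kb. Calls become frequent past rank 30000, and among the 13 calls of rank 1000 or better, 9 lay within 1 kb of a summit of the other line.

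The highest-ranked calls were mostly places where the other line had a summit close by. Whether such summits belong to 1 peak cannot be read from lists of summits. Of the 6 KO-only regions of rank 1000 or better, 4 had a control summit within 1 kb (66.7%), and of the 7 control-only regions 5 had a KO summit within 1 kb (71.4%). Past rank 40000 these shares were 10.1% and 10.5%. At the gene end of Slc35f5, a nucleotide sugar transporter family gene, KO summits (chromosome 1, 125560960 to 125560961) ranked 700 and 576, and control summits 335 bp away (125560618 to 125560625) ranked 460 and 297. Gria4, a glutamate receptor subunit, showed the same arrangement with 299 bp between KO summits (1034 and 851) and control summits (1268 and 1053). Fbxo30, an F-box gene, had 262 bp between them, Cldn12, a claudin, 284 bp, and Gm3696, a predicted gene of a multi-copy cluster, 270 bp. The other KO-only calls among the 10 best at gene ends were at Tmem267, Pcsk2, Trim28 and Ppp2r5c, 274 to 766 bp from a control summit. On the control side they were at Gm2237, Gm3752, Rab28, Ntan1 and Fign, 311 to 522 bp from a KO summit. Of the 10 best-ranked KO-only regions within 1 kb of a gene end, Trim12a alone had no control summit within 1 kb. All 10 best-ranked control-only regions of that class had a KO summit within 1 kb. In all, 669 KO-only and 627 control-only regions had a summit of the other line within 1 kb. The remaining 4437 (8.49% of reproducible regions) and 4374 (8.37%) did not, and these are called isolated below. Judged on the full lists, 5064 of the KO-only regions and 4648 of the control-only regions lacked any summit of the other line, whatever its score. The full control lists (53473 and 54100 summits) were little longer than the 53456 compared, while KO replicate 1 held 59006. Few KO-only regions could be lost in this way, so the 2 counts cannot be set against each other.

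Called regions lay away from gene ends. Within 1 kb of either end of a protein-coding gene were 7.21% of KO-only regions (95% exact binomial interval 6.51% to 7.95%, n = 5106) and 6.12% of control-only regions (5.47% to 6.82%, n = 5001), against 35% of regions in all 4 libraries. The interval covers counting error over regions only. Rank goes with location: median ranks of shared regions were 10147 to 10314 at gene ends and 21697.5 to 22032.5 elsewhere, over the 4 libraries. Called regions were mostly weak sites, and their gene-end shares were not compared at equal rank. Gene bodies held 36.4% and 39.2%, against 27.3% of regions in all 4 libraries, and 56.4% and 54.7% lay elsewhere. In each library 24.6% to 25% of compared summits were at gene ends, so the whole lists were close to each other in this respect. Read the other way, 2.78% of gene-end regions were KO-only and 2.31% control-only, while 11.4% and 12.1% of gene-body regions were. Median distance to the nearest gene end was 29502 bp for KO-only, 32828 bp for control-only and 7779 bp for shared regions. With N divided by 2, the gene-end share was 15.8% for KO-only regions and 6.48% for control-only regions, so the KO share depends on the number of summits compared. Among isolated calls the gene-end shares were 4.69% and 3.34%.

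Chromosomes differed modestly. KO-only shares ran from 7.97% on chromosome 2 and 8.12% on X to 11.8% on chromosome 14. Control-only shares ran from 7.28% on chromosome 11 and 7.61% on X to 11.8% on chromosome 12. KO-only exceeded control-only by 2.67 percentage points on chromosome 8 (308 against 235 regions) and by 2.21 points on chromosome 11 (292 against 224). The order was turned on chromosome 12 (192 against 258) and chromosome 2 (325 against 406). On X, 68.9% of reproducible regions were found in all 4 libraries, the highest share of the 20 chromosomes.

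**Figure D2:**
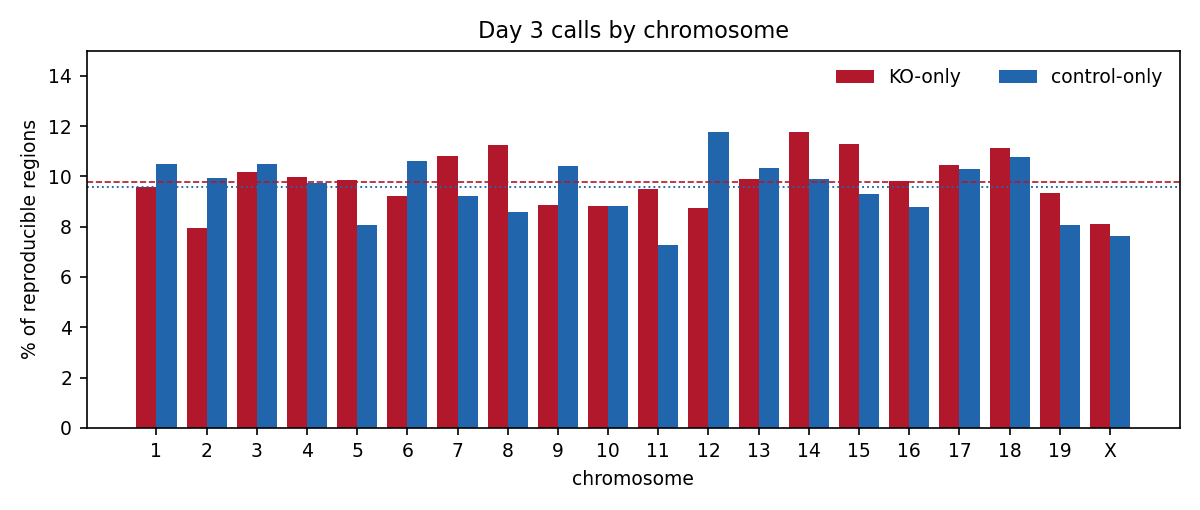
Share of reproducible regions called KO-only or control-only on each chromosome, with dashed and dotted lines at 9.77% and 9.57% for all chromosomes together. Chromosomes 8, 11 and 12 show the widest gaps between the bars.

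Some calls were packed into single stretches. Among 2237 windows of 1 Mb with at least 10 reproducible regions, the median window held 2 KO-only and 2 control-only regions. The window from 123 to 124 Mb of chromosome 8 held 16 KO-only and no control-only regions among 67, with 76 and 73 KO summits against 56 and 58 control summits. Its calls lay near Gas8 (a dynein regulator of cilia), Spire2, Acta1, Rab4a and Tubb3. On chromosome 7, the window from 45 to 46 Mb held 17 KO-only regions and 1 control-only region among 91, near Ppfia3, Slc17a7, Fgf21, Ftl1 and others. A window near Cdh10, a cadherin gene (chromosome 15, 19 to 20 Mb), had 9 KO-only regions among 14, with 15 and 15 KO summits against 9 and 7 in control. The windows were chosen for their KO-only regions, which favours higher KO summit numbers. Of all 2237 windows, 23.6% had more summits in both KO than in both control libraries, and 21.8% the reverse.

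Control-only regions were packed at other places. The 3 windows of chromosome 12 from 113 to 116 Mb, where the immunoglobulin heavy chain locus lies, held 17, 12 and 12 control-only regions against 5, 1 and 4 KO-only regions. In the middle window KO libraries had 14 and 7 summits and control libraries 36 and 28. From 147 to 148 Mb of chromosome 4, where calls lay near a cluster of zinc finger genes (Zfp978, Zfp984, Rex2 and others), 19 control-only and 7 KO-only regions were found among 79. From 20 to 21 Mb of chromosome 8, near defensin and Gm15319 genes, there were 13 control-only and 4 KO-only regions. The window on chromosome 6 from 137 to 138 Mb, near Eps8 and Ptpro, had 10 control-only and no KO-only regions among 29. Zinc finger, defensin and Gm clusters hold near-identical copies, so the place of a read among the copies is uncertain there. Copy number and strain were not tested.

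By gene, 3124 genes were nearest to a KO-only region, 2960 to a control-only region and 921 to both, out of 17007 genes nearest to a reproducible region. Gas8 (gene 104346) had the most KO-only regions, 7 of its 17, all isolated and none ranked better than 45737. It was nearest to 20 and 20 KO summits and 11 and 11 control summits. Sh3bp4, an endocytosis adaptor, had 12 and 14 KO summits against 5 and 5, with 4 KO-only regions. Arhgap28, a GTPase-activating protein gene, also had 4 KO-only regions, the best at rank 9581, with 10 and 10 KO summits against 4 and 6. Fcgr1, the high-affinity IgG receptor gene, had 5 KO-only regions and 9 and 10 against 5 and 7 summits. Vangl1, a planar cell polarity gene, had 4 KO-only and 2 control-only regions. Rapgef2, Pcdh1, Trak1 and Pclo had 4 KO-only regions each.

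On the control side, Trabd2b, which encodes a protease that acts on Wnt proteins, had 7 control-only regions of 17, all isolated, the best at rank 7633, and 11 and 8 KO summits against 19 and 17 in control. Rftn1, a lipid raft gene, had 7 control-only regions of 9, with 2 and 2 KO summits against 10 and 9. Grid1, a glutamate receptor family gene, had 5, with 6 and 8 against 15 and 12 summits. Snrpn, an imprinted splicing gene, also had 5, with 6 and 6 against 11 and 11 summits. Plekha5 (7 and 7 against 12 and 11) and Zbtb7c (7 and 8 against 11 and 13) had 5 each. The choice of genes by their calls favours these directions. Among all 17007 genes, 9.7% had more summits in both KO libraries than in both control libraries and 9.15% the reverse. Hrh1, a histamine receptor gene, lies close to Atg7, an E1-like enzyme of autophagy, on chromosome 6, and both genes had calls in both directions: 4 KO-only and 5 control-only near Hrh1, and 5 KO-only and 3 control-only near Atg7. Near copies make 4930467E23Rik and Gm15319, each with 5 control-only regions, uncertain. Col19a1, a collagen gene, had 4 control-only regions and 1 KO-only region, the best at ranks 3 and 7, with 3 and 4 KO summits against 7 and 7. The KO-only region had a control summit within 1 kb, and 3 of the 4 control-only regions were isolated.

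Shared regions could differ in strength, which presence and absence do not show. A shared region was called higher in one line when both of its libraries ranked it at least 2 times better than both libraries of the other line. By this measure, which was chosen after values had been seen, 674 of the 32431 shared regions were higher in KO (2.08%) and 864 higher in control (2.66%). Median log2 rank ratio over all shared regions (KO over control, above 0 meaning a worse rank in KO) was -0.04. The most uneven in the KO direction was a site 48498 bp from Tcp10c, ranked 169 and 153 in KO and 7579 and 10761 in control. A gene-body site nearest to Smo, the Hedgehog signal transducer, ranked 141 and 111 in KO and 3187 and 4551 in control. In the control direction a site near Defa21, a defensin of a multi-copy cluster, ranked 27400 and 27307 in KO and 282 and 334 in control. The gene end of Thoc1, an RNA export factor, ranked 6095 and 5958 in KO and 268 and 223 in control, and a gene-body site nearest to Ddr2, a collagen receptor, ranked 26957 and 25688 against 1229 and 719.

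Near the streak genes, shared regions stood higher in control at single sites. Of 46 shared regions near the streak and nascent mesoderm list, 5 ranked higher in control (10.9%, against 2.66% of all shared regions). None ranked higher in KO, as in most lists. Aplnr, the apelin receptor of early mesoderm, had a site 4518 bp from the gene (chromosome 2, 85131758 to 85131842) ranked 52018 and 38960 in KO and 1496 and 6106 in control. Its gene-end site (85136138 to 85136252) ranked 13249 and 20608 in KO and 2406 and 1110 in control. Foxa2, a forkhead factor of the anterior streak and endoderm, had a gene-end site ranked 9502 and 10815 against 2636 and 2156, and a site 38003 bp away ranked 48855 and 48931 against 11207 and 10990. At Eomes, the T-box factor that drives mesoderm and endoderm entry, a site 9767 bp from the gene ranked 15805 and 18331 in KO and 6279 and 5897 in control. The rule that chose these regions fixes their direction.

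Signalling genes showed single sites in both directions. In the BMP list, sites near Bmp2, a ligand (10947 and 9049 in KO, 2502 and 2192 in control), and near Smad1, its effector (39346 and 38800 against 9103 and 7508), ranked higher in control. Sites at Bmpr1b, a BMP receptor, and near Id1, a BMP target, ranked higher in KO. Among FGF feedback inhibitors, 1 site near each of Spry2 (21770 and 25214 against 6396 and 6001), Spred1 and Spred2 ranked higher in control. These sites were 4.62% of the 65 shared FGF regions, against 2.66% of all shared regions. None of the 65 ranked higher in KO, as in most lists. Near Hey1, a Notch target, the gene-end site ranked 2065 and 2633 in KO and 6865 and 6166 in control. In the glycolysis list the gene end of Pgk1, the phosphoglycerate kinase gene on X, ranked 1617 and 1267 in KO and 102 and 132 in control. The Pgk1 promoter is common in targeting constructs, and, as at Hprt, whether one adds to this value was not tested. In the autophagy list 4 sites near Atg7 and 1 near Pik3c3, the class III phosphoinositide kinase, ranked higher in control. They were 10.6% of the 47 shared regions, and none ranked higher in KO, as in most lists. The Atg7 sites lay in 1 stretch of chromosome 6 (114575053 to 114636667).

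**Figure D3:**
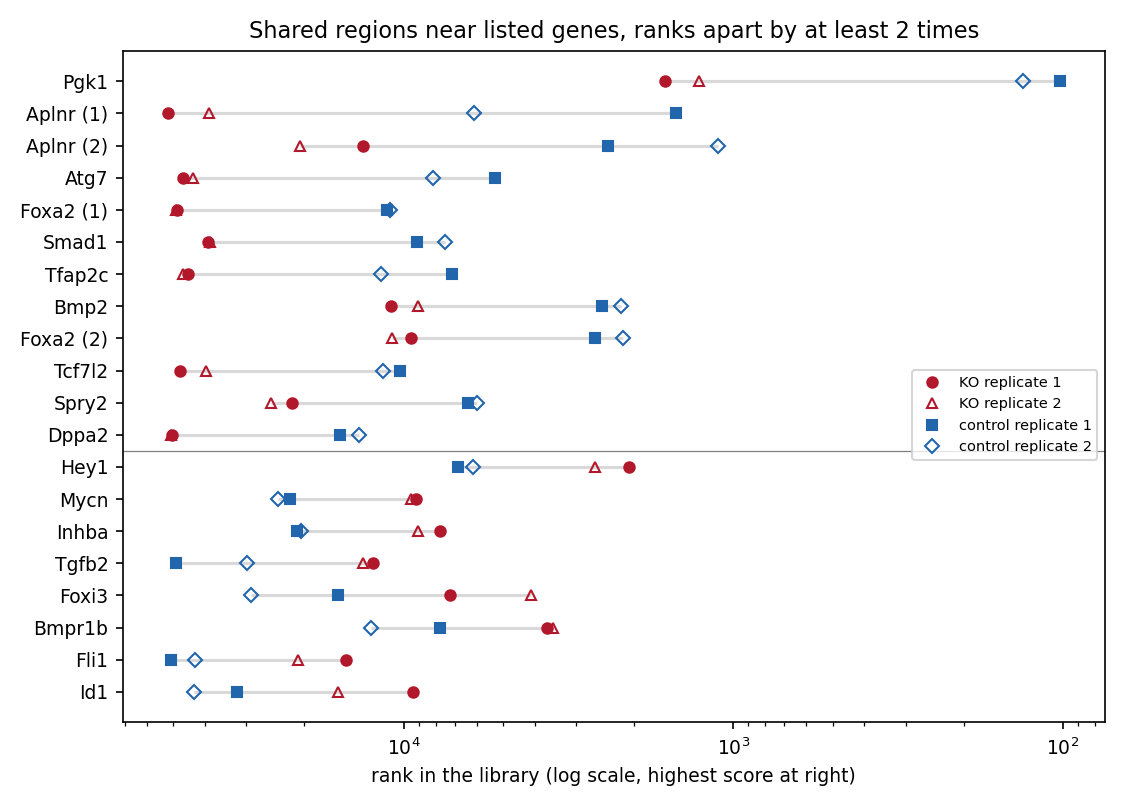
Rank in each of the 4 day 3 libraries for shared regions near listed genes: above the line the 12 with the widest gap among those higher in control, and below it all 8 higher in KO, whose gaps are narrower than those of several control-higher regions not drawn. Each row is 1 region named by its nearest listed gene, the axis is logarithmic with the highest scores at the right. The choice of rows requires that the KO and control points do not overlap in any of them.

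Called regions were then counted near 24 lists of genes (488 symbols, all matched), each region going to its nearest protein-coding gene within 100 kb. Median share over the lists was 10.5% KO-only and 10% control-only, close to the 9.77% and 9.57% of all regions. The primitive streak and nascent mesoderm list had 27 control-only regions of 101 (26.7%) and 15 KO-only (14.9%). With N divided by 2 the counts were close, 8 control-only and 7 KO-only of 40, and without control replicate 2 they were 42 and 18 of 119. KO-only regions numbered 9 where no control summit was allowed within 1 kb, and 23 without KO replicate 2. Its genes were nearest to 82 and 81 KO summits and 101 and 100 control summits. Of the 27, 21 were isolated, and the 27 lay near 16 genes. Mixl1, a homeobox factor of the streak, had 1 and 1 KO summits against 4 and 3 in control. Gsc, the organizer homeobox factor, had 6 and 4 against 10 and 9, and its best control-only site (chromosome 12, 104486405 to 104486421) ranked 15934 and 15249 with no KO summit within 13 kb. At the Mixl1 gene end, the control summits (180697351 to 180697417 on chromosome 1, ranks 8457 and 7969) lay 420 bp from the KO summits (180696797 to 180696931, ranks 24181 and 25362). Both lines thus had summits there, which differed in position and in rank. Near Aplnr a control-only site (85160735 to 85160762, ranks 17488 and 19180) was found again in both iHA-Foxk1 and neither KO library at day 5. Most of the 27 did not recur in this way: 11 were found in at least 1 iHA-Foxk1 library and 6 in at least 1 KO library of day 5. Of the 15 KO-only regions, 4 were found in both KO libraries and 4 in at least 1 iHA-Foxk1 library of day 5. Of the 27 control-only regions, only the Aplnr site was found in both iHA-Foxk1 libraries. Counts for both libraries and for at least 1 library are unlike measures and cannot be set against each other. Mesp1, the earliest cardiac mesoderm factor, had 2 control-only sites, the better at ranks 17483 and 29441. Tbx6, a paraxial mesoderm factor, had 1 at its gene end (24768 and 40320). Among the KO-only sites of the same list, an isolated site 67830 bp from Foxa2 (chromosome 2, 148114799) ranked 14073 and 19308. By the worse of its ranks it stood above all but 3 of the 27 control-only sites. Eomes (13335 and 15124) and Dll1, a Notch ligand (26658 and 25079), had KO-only sites with a control summit 441 and 435 bp away. 

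Hox genes, which pattern the body axis, showed the reverse. Of 67 reproducible regions near them, 10 were KO-only (14.9%) and 1 control-only (1.49%), but with N divided by 2 there were 2 in each direction among 8. Their genes were nearest to 85 and 90 KO summits and 55 and 69 control summits. Both KO libraries were above both controls in 6 of the 24 lists and below them in 3. KO-only sites included ones near Hoxa10, Hoxa13, Hoxb9, Hoxb13, Hoxc5, Hoxd4 and Hoxd13. All were weak, the best at ranks 32362 and 35617 near Hoxb9. At Hoxa10 a gene-end site (52240506 to 52240568 on chromosome 6) ranked 33431 and 41261 in KO, with the nearest compared control summit 5889 bp away, and it was found at day 5 in both KO libraries and 1 iHA-Foxk1 library. Of the 10, 6 were found in an iHA-Foxk1 library at day 5. Leaving out 1 library moved the counts: without a control library 16 to 23 regions were KO-only and 7 to 12 control-only, and without a KO library 31 to 32 were KO-only and 3 to 6 control-only.

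**Figure D4:**
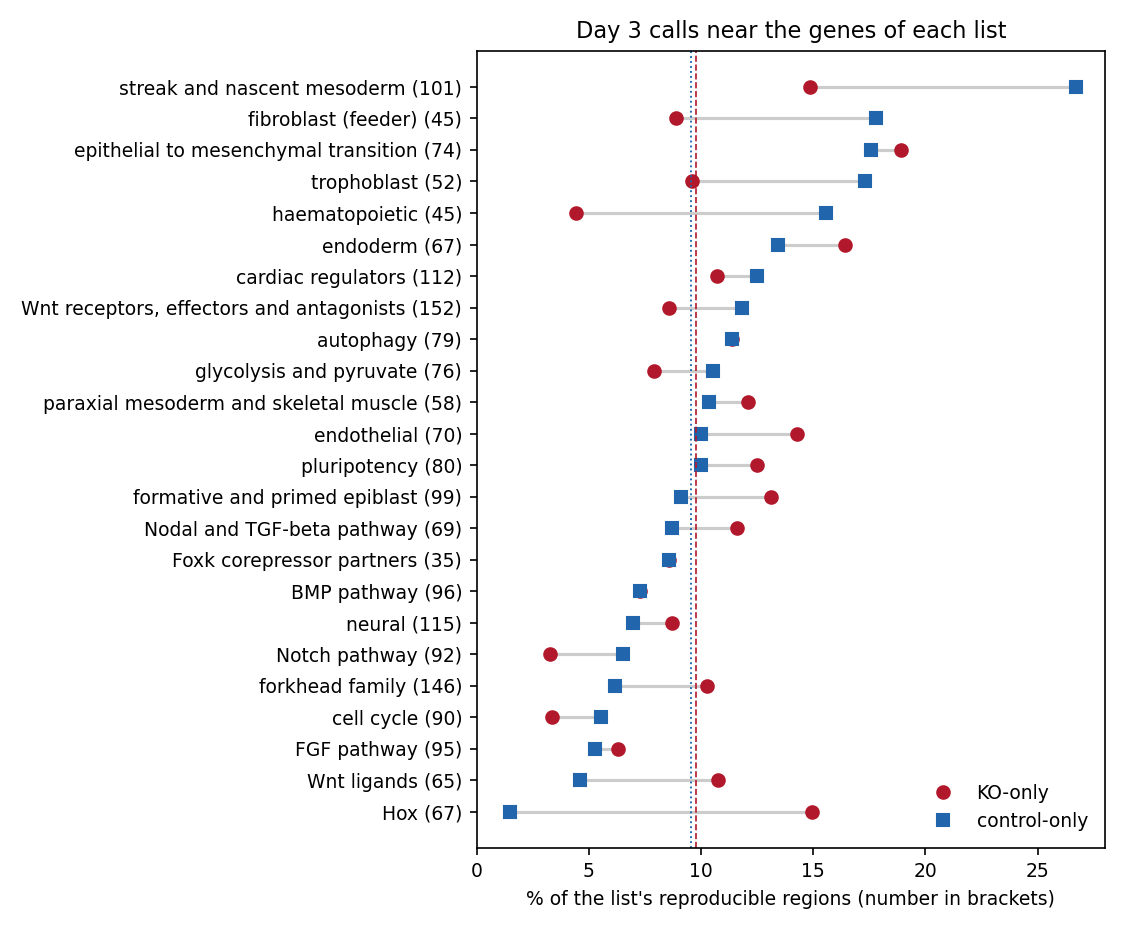
Share of each list's reproducible regions (their number in brackets) called KO-only or control-only, with dashed and dotted lines at the 9.77% and 9.57% of all regions. The streak list stands at the top of the control-only order with 26.7% and the Hox list at the bottom with 1.49%.

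Wnt ligands had 7 KO-only and 3 control-only regions of 65 (10.8% and 4.62%). The best KO-only site was at the gene end of Wnt2b (32127 and 22675), with control summits 589 bp away. Wnt receptors, effectors and antagonists had 13 and 18 of 152 (8.55% and 11.8%). Near Axin2, the feedback target of canonical Wnt signalling, a control-only site ranked 19176 and 21836 and was found in both iHA-Foxk1 and neither KO library at day 5. The other control-only sites of Axin2 were found in no iHA-Foxk1 library at day 5, and 1 of them in a KO library. Lef1, a nuclear effector, had a KO-only site (16441 and 16378) and a control-only site 266 bp from it (13601 and 26004). The Notch list had 3 and 6 of 92 regions (3.26% and 6.52%) and the cell cycle list 3 and 5 of 90 (3.33% and 5.56%), both under the background in each direction. Near Myc a control-only site 96050 bp from the gene ranked 17680 and 23538, with no KO summit within 51114 bp.

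The epithelial to mesenchymal transition list had 14 KO-only and 13 control-only regions of 74 (18.9% and 17.6%), both above the background. Cdh2, the mesenchymal cadherin, had a KO-only site at its gene end (19927 and 18567), and Fn1, fibronectin, a control-only site (21121 and 19529). Haematopoietic genes had 2 and 7 of 45 (4.44% and 15.6%), with control-only sites near Kit, Ikzf1, Lmo2, Runx1 and Ptprc. Their summits were 54 and 44 in KO and 50 and 48 in control. The best of these control-only sites, at Ikzf1 (32545 and 18215), had a KO summit 957 bp away. The cardiac regulator list had 12 and 14 of 112, the endoderm list 11 and 9 of 67, and the pluripotency list 10 and 8 of 80. Esrrb and Prdm14, both naive pluripotency factors, had 3 and 2 of the KO-only regions, and Zfp42 and Prdm14 had 3 control-only regions each. The forkhead family list had 15 and 9 of 146 (10.3% and 6.16%) and the Foxk corepressor list 3 and 3 of 35. Autophagy had 9 and 9 of 79, and glycolysis 6 and 8 of 76. Fgf10, a ligand of the second heart field, had a control-only site at ranks 12145 and 15764, found in all 4 libraries of day 5.

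Markers of other cell types were counted in the same way. Fibroblast genes, which would mark remaining feeders, had 8 control-only regions of 45 (17.8%) and 4 KO-only (8.89%), but their summits were 51 and 43 in KO and 44 and 44 in control. Promoter summits of 11 fibroblast genes with a start site in the table were found for 8 and 7 genes in KO and 6 and 7 in control, and Col3a1, Postn and S100a4 had none in any library. Trophoblast genes had 9 control-only of 52 (17.3%) and 5 KO-only (9.62%), with 50 and 53 KO summits and 58 and 58 control summits, led by a site 71015 bp from Tfap2c (6463 and 9888). Eomes and Hand1 belong to both this list and the streak list. Their 3 and 1 control-only regions, and 1 KO-only region near Eomes, are counted in both. Eomes alone was nearest to 9 and 11 KO summits and 14 and 14 control summits. The part of fibroblast or trophoblast cells in the streak result was not tested. In bulk tissue, fewer cells of a type and weaker opening in each cell cannot be told apart.

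Later days were used to ask whether the day 3 calls came back. Of the KO-only regions, 41.9% and 33.5% had a summit within 250 bp in the 2 KO day 5 libraries, against 15.8% and 12.5% of the control-only regions. In the iHA-Foxk1 day 5 libraries the shares were 2.37% and 11.2% of KO-only and 5.66% and 16.2% of control-only regions. KO-only minus control-only was 23.5 ± 3.62 percentage points in KO day 5 (SD, n = 2) and -4.17 ± 1.25 in iHA-Foxk1 day 5 (SD, n = 2). At day 10 the differences were small: -1.06 ± 0.01 in KO (SD, n = 2) and -1.35 ± 0.13 in Control (SD, n = 2). Averaged over both days, KO exceeded control by 14 points (two-sided exact permutation p = 0.0556 over 36 arrangements, the smallest possible). The difference was 27.7 points at day 5 and 0.287 at day 10. Later lists differ in length, from 48391 and 42129 summits in KO day 5 to 14519 and 34040 in iHA-Foxk1 day 5. With lists cut to equal length within a day, the averaged difference was 1.93 points (exact permutation p = 0.333), 4.26 at day 5 and -0.4 at day 10, where the sign turned. Day 5 shares were then 2.6% and 2.6% of KO-only against 0.94% and 1% of control-only regions in KO, and 2.37% and 2% against 5.66% and 3.96% in iHA-Foxk1. In both forms, each day 5 library held more of the calls of its own line. Peak names inside both KO day 5 lists carry the tag D7, so their day is uncertain.

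**Figure D5:**
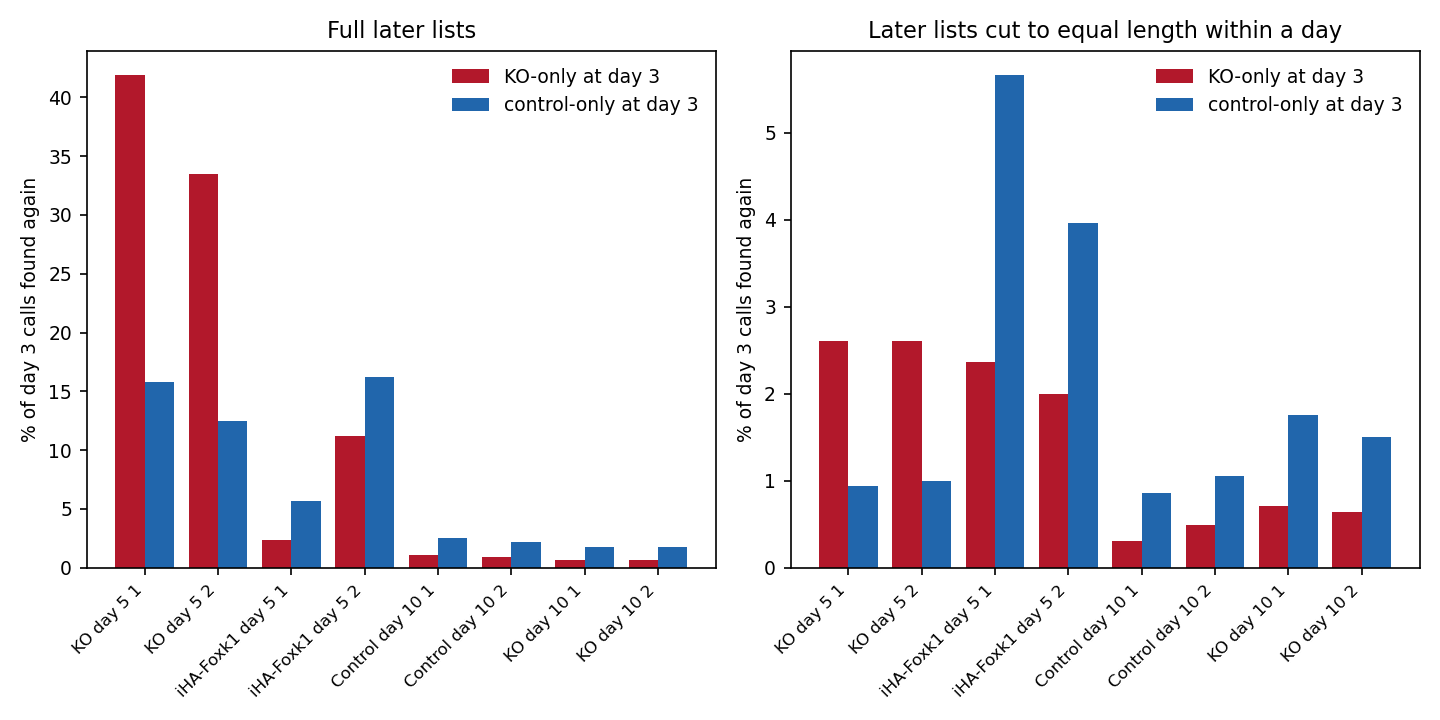
Share of day 3 KO-only and control-only regions with a summit within 250 bp in each later library (group and replicate), with full lists at the left and lists cut to 14519 (day 5) and 4028 (day 10) summits at the right. The 2 panels have different vertical scales. KO day 5 libraries hold more of the KO-only calls and iHA-Foxk1 day 5 libraries more of the control-only calls in both panels, and at day 10 all 4 libraries hold more of the control-only calls.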

How the data were processed

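ATAC-seq of 12 libraries was deposited as 1 list of peak summits per library, and 4 lists (day 3) were compared here. For the authors' own steps, the submitters' processing notes name Bowtie2 2.2.4 (an aligner), MACS2 (a peak caller) and the mm10 build. The deposited score is a −log10 p-value or q-value, and which of these is not given in the sources used here. The lists hold no reads, so depth is unknown, and scores served only for ranks within a library. Day 3 and day 5 names carry a duplicate-removal tag.

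Summits were merged by single linkage at 250 bp in Python 3.11 code, tested on simulated lists with 200 planted regions per direction, all recovered. The simulated regions lay well apart, with small summit shifts and no cut by rank. That run therefore checks the code only, and losses near the rank cut and larger shifts were not simulated. Genes, their ends and promoter sequences came from RefSeq tables of GRCm38.p6 (21631 protein-coding genes). A region went to the gene with the nearest end within 100 kb. The text names, per direction, the 10 genes with most calls and the 10 best-ranked calls at gene ends; of list members with calls it names some, mostly the best-ranked. Promoter calls and ranks of shared regions were added after values had been seen. Members, lists and rules were chosen with earlier results of these data known. Alternatives were other numbers of summits, merging distances, absence rules, a score of at least 5, and each library left out.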

Additional observations from a re-analysis of the deposited data

Results flagged for a closer look

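Summits on chromosome Y lay outside the comparison. KO replicates 1 and 2 held 242 and 229 of them, and the iHA-Foxk1 control replicates 170 and 179, so both KO libraries were above both controls. This was not tested further.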

How the results depend on the processing

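The recurrence difference averaged over both days kept its sign under the alternatives run, though with equal lists day 10 turned to -0.4. No p under 0.05 is possible in this design. It was 13.2 points with all summits, 24.4 (exact permutation p = 0.333) with N divided by 2 and 1.93 with later lists of equal length. In the fit with the replicate block, where genotypes were exchanged only within the same day and replicate number, the difference of 14 had an exact permutation p = 0.125 over 16 arrangements. Day 5 alone gave 27.7 and day 10 alone 0.287. KO-only regions numbered 2509 and control-only regions 2515 with N divided by 2. Leaving out 1 library loosens the rule, and gave 8047 to 11294 KO-only regions, 6965 to 12205 control-only regions, gene-end shares of 7.93% to 9.91% and 7.43% to 8.16%, 168 to 227 KO-only and 127 to 164 control-only promoters, and 1378 to 1417 (KO) and 1395 to 1613 (control) shared regions ranked higher. The recurrence difference then ran from 5.93 to 14.3. A rank factor of 3 left 198 and 290 shared regions.

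Gene-end shares (KO-only, then control-only) were 15.8% and 6.48% with N divided by 2, 11.7% and 10.3% with merging at 100 bp, 5.98% and 4.97% at 500 bp, 4.69% and 3.34% with absence within 1 kb, 9.33% and 6.02% with a score of at least 5, and 11.1% and 9.76% with gene ends within 2 kb. KO-only promoters numbered 243 with N divided by 2. Of 384 list values under alternatives, 188 moved by over 1.5 times, 133 of them with a library left out and 38 with N divided by 2. The streak list kept more control-only than KO-only regions in each alternative run for lists, from 8 against 7 (N divided by 2) to 42 against 18 (without control replicate 2). Other merging distances, absence judged on the full lists and a score of at least 5 were not run for lists. The Hox list had 2 and 2 with N divided by 2. Depth is unknown, so a region missing from a library may be open below its peak threshold.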
